A study of Mus musculus with 6 samples.

Results

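Classical target genes of the glucocorticoid receptor (Tsc22d3, Zbtb16, Sgk1, Errfi1, Pdk4, Arrdc2, Fam107a, Mertk, Map3k6 and Bcl6) were followed in the RNA of bone cells from dexamethasone-treated mice. They were chosen by name, with earlier results of these data known. All 10 of 10 were found among the 29616 genes of the deposited table by their Ensembl identifiers. The comparison was between 3 libraries from control C57BL/6 mice and 3 libraries from C57BL/6 mice that received the synthetic glucocorticoid dexamethasone every day from 8 weeks of age, at 0.08 µg per g of body weight over 4 weeks. The labels call the material bone cells, and the study's text describes cells positive for the Osteocalcin protein, isolated from bones after removal of the marrow. For this model the study's text names saline as the control, and elsewhere it calls the controls of the Osteocalcin-positive cells non-treated. Which of these holds for the libraries, and whether each came from 1 mouse or from several, is not given in the sources used here. The labels name the strain C57BL/6, and the study's methods give its wild type mice as C57BL/6J. P-values measure the spread between these libraries. Values of single libraries are given in the order of replicates 1, 2 and 3.

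Glucocorticoids enter the cell and bind the glucocorticoid receptor, a transcription factor held in the cytoplasm by HSP90 chaperones until the hormone arrives. The receptor then moves to the nucleus, where dimers bind a palindrome of hexamers spaced by 3 bases and raise nearby genes, while other genes fall when the receptor tethers to factors such as AP-1 and NF-kappaB. Some products of the raised genes curb inflammation or growth factor signalling, and others move the cell's fuel use from glucose to fat. In bone, long exposure is known for lower bone formation by osteoblasts.

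The sequence the receptor's dimers prefer, and a shorter form of it, were looked for in the promoters of the 10 genes. Windows that held either are printed here because Sgk1 and Map3k6 among them were also genes with large differences below. RefSeq windows (GRCm38.p6) reach from 250 bases before to 50 bases after a transcript start and are 300 bases long. Of the 10 genes, 9 had 1 or more windows, 20 in all, and Zbtb16 had none. The full palindrome, AGAACA and TGTTCT with any 3 bases between them, searched on both strands, was present in 3 of all 32851 windows (0.00913%), and 1 of the 3 was among the 6 windows of Sgk1. It began 189 bases and ended 175 bases before the start of that transcript. A shorter palindrome, GNACA and TGTNC with any 3 bases between them (N is any base), which every full match also contains, was present in 156 windows (0.475%), and among them were windows of Sgk1, Map3k6 and Fam107a. Capitals mark the match in each, written 5′ to 3′ along the gene's own strand. The Sgk1 window is chr10:21993640-21993939 (plus strand), the Map3k6 window chr4:133240568-133240867 (plus strand) and the Fam107a window chr14:8309730-8310029 (minus strand).
Sgk1: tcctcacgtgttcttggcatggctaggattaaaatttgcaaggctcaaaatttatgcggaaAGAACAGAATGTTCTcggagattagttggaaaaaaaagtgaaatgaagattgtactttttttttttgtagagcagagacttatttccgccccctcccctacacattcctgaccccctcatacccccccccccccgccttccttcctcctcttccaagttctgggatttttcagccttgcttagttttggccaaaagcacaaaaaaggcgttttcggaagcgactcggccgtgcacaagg
Map3k6: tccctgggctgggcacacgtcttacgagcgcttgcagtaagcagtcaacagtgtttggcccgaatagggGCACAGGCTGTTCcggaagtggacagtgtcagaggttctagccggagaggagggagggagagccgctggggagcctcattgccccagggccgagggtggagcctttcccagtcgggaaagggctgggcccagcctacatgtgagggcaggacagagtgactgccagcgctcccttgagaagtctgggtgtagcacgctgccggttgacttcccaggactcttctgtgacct
Fam107a: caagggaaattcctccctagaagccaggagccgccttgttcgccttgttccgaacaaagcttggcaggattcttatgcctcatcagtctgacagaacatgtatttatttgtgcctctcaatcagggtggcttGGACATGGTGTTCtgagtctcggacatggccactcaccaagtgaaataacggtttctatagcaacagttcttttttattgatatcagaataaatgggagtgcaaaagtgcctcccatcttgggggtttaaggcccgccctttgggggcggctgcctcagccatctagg
The Map3k6 match lay 181 to 169 bases and the Fam107a match 118 to 106 bases before the start, and another Fam107a window, shifted by 2 bases, held the same letters. The hexamer AGAACA alone was present in 18.97% of all windows and in 7 of the 20 windows of the 10 genes, which were those of Sgk1, Fam107a, Bcl6 and Tsc22d3. Of the 145 genes with the shorter palindrome, 47 had enough reads to be compared between the groups, and 12 of these (25.5%) were called higher and 3 (6.38%) lower with dexamethasone, beside 11.7% and 10.6% of all tested genes. Without Sgk1 and Map3k6, 10 of 45 (22.2%) were called higher. Of the 1680 tested genes with the hexamer, 13.0% were called higher and 10.5% lower, near the shares of all tested genes. No test was made of these shares. A match describes letters in a window and does not show binding. The other windows were searched in the same way and held neither palindrome.

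Summed over the genes of the deposited table, read counts were 72596611 to 89910728 per library, which leaves out reads not assigned to genes. The deposited values are read counts divided by 1 size factor per library, called normalized counts here, and their sum was 76222546 to 79441523 in the control and 82325568 to 85765632 in the dexamethasone libraries. A count of 0 allows up to 3 reads, which covers counting error only. Among markers of osteoblasts, Col1a1, Col1a2, Runx2 and Sp7 were abundant in all libraries and lower with dexamethasone, Spp1 and Dmp1 were higher, and Bglap, which encodes Osteocalcin, had 107 ± 12.9 (SD, n = 3) normalized counts in control and 12.2 ± 2.80 (SD, n = 3) with dexamethasone. Bglap shares reads with near-identical copies, so its count is uncertain. Summed over the other marker lists, normalized counts in control and with dexamethasone were 2183 to 2318 and 3304 to 3907 for endothelial, 100.2 to 134 and 788 to 831 for haematopoietic, 749.6 to 773 and 864 to 1014 for neutrophil, 30.3 to 36.9 and 20.99 to 49.1 for erythroid, and 148034 to 155890 and 21845 to 23278 for smooth muscle markers (mostly Acta2). Most of the endothelial sum was Vwf, with means of 1825 and 3097, while the defining markers Cdh5 and Tie1 had 3 reads or fewer in every library. Of the 6 tested endothelial markers, 1 was called higher and 0 lower, beside 11.7% and 10.6% of all tested genes. By the adjusted p alone 4 were higher and 0 lower, beside 37.2% and 35.2%, and 2 did not pass. Their log2 fold changes ran from -0.75 to 1.20. Of the 4 tested haematopoietic markers, Cd53 and Itgb2 were called higher, by 4.11 and 3.196 on the log2 scale, and Laptm5 and Coro1a lower, with log2 fold changes of -1.49 and -1.77. Coro1a was not called in a fit without the mean-variance trend (adjusted p = 0.0634 in limma). The part of all these cell types in the differences below was not tested. In such bulk libraries fewer cells of a type and less RNA per cell cannot be told apart.

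Of the 10 genes, 6 were called higher with dexamethasone (Zbtb16, Sgk1, Map3k6, Errfi1, Tsc22d3 and Arrdc2) and 0 were called lower. A gene was called when its log2 fold change was 1 or more in size and its adjusted p, from limma with Benjamini-Hochberg adjustment over the 17442 genes whose mean reached 10 normalized counts, was below 0.05. By this rule 11.7% of all tested genes were called higher and 10.6% lower, 22.3% in all. By the adjusted p alone 9 of the 10 genes were higher, beside 37.2% of all tested genes (72.5% in either direction). In the same 9 genes every dexamethasone library lay above every control library, which held for 38.4% of all tested genes, beside 36.4% with dexamethasone lower and 74.7% in either direction. The median log2 fold change of the 9 tested genes was 1.65, beside 0.00071 over all tested genes, and it was 1.65 also with Zbtb16 at its lower bound. Fam107a was the 1 gene with too few reads to be tested. Fold changes of all genes lay between -1.51 and 1.89 on the log2 scale from the 5th to the 95th percentile.

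**Figure D1:**
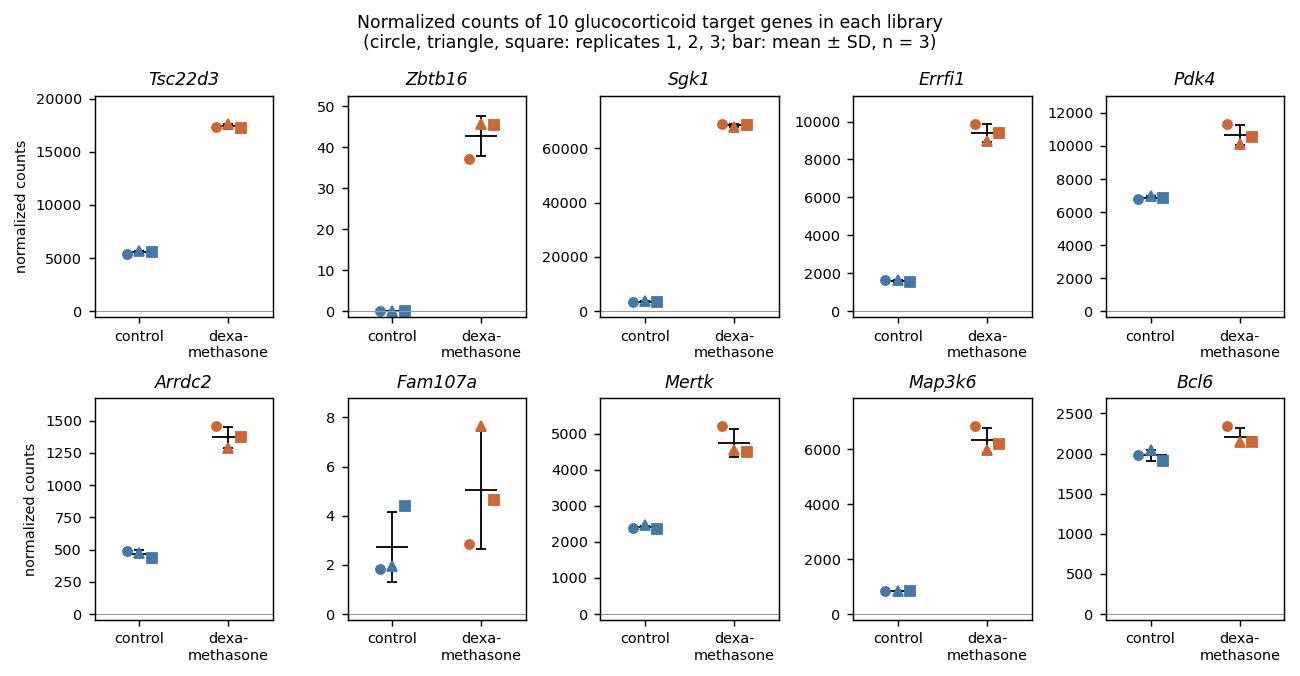
Normalized counts (y axis, 1 linear scale per gene) of the 10 genes in the 3 control and 3 dexamethasone libraries, with each library as a point and the mean ± SD as a bar. In 9 of the genes the dexamethasone points lie above all control points, and in Fam107a the groups overlap.

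**Figure D2:**
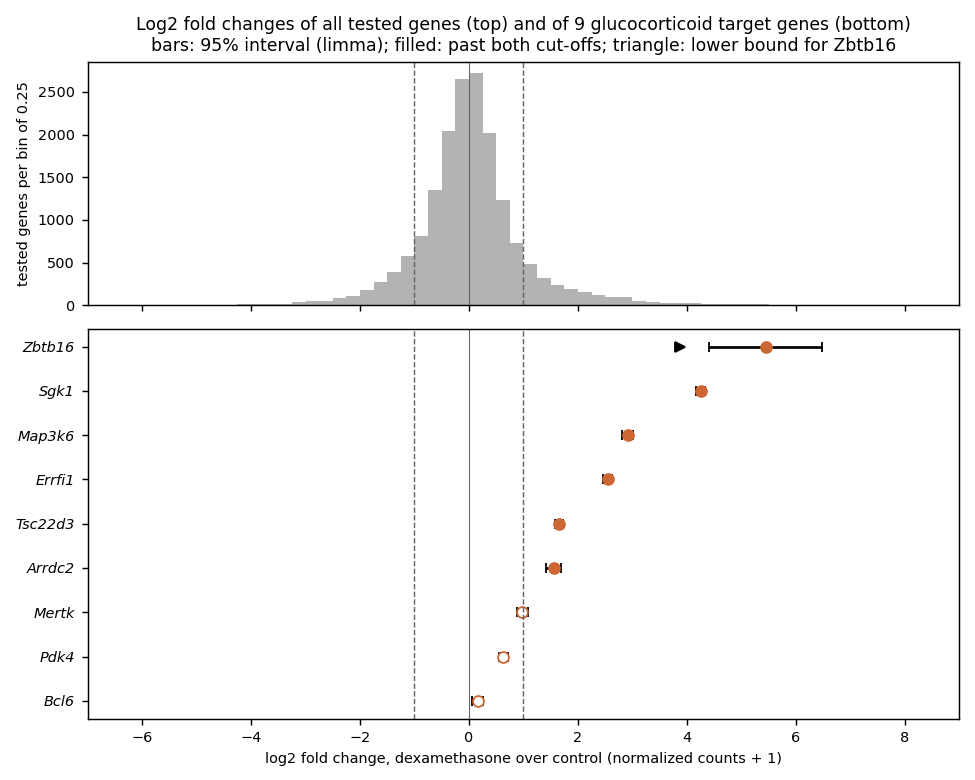
Log2 fold change of each gene, dexamethasone over control, with its 95% interval from limma, below a histogram of all 17442 tested genes, with the cut-offs of -1 and 1 as dashed lines and filled points for called genes. The values run from 0.16 for Bcl6 to 5.45 for Zbtb16, whose triangle marks the lower bound of 3.87, and Fam107a was not tested.

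Among the kinases, Sgk1 had the largest difference in reads. It encodes serum- and glucocorticoid-regulated kinase 1, which keeps ion channels and transporters at the cell surface by phosphorylating the ubiquitin ligase NEDD4L. It had 3561, 3827 and 3401 normalized counts in control and 69088, 67915 and 68622 with dexamethasone. The lowest dexamethasone library was far above the highest control library, and the 3 dexamethasone libraries were close to each other. The mean rose from 3596 ± 215 to 68542 ± 590.4 (SD, n = 3 each), 19.1-fold, with a log2 fold change of 4.25 (SE 0.0391, 95% interval 4.17 to 4.33, adjusted p = 1.26e-29 in limma). Of all tested genes, 99.3% had a lower log2 fold change. Reads of Sgk1 were 14.8% to 16.0% of the reads of the 10 genes together in the control libraries and 55.9% to 57.3% in the dexamethasone libraries. Together the 10 genes held 296 to 302 CPM (reads scaled by the library total) in control and 1421 to 1441 CPM with dexamethasone.

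Map3k6, also known as ASK2, is a kinase that forms a complex with ASK1 (Map3k5) at the head of the stress-activated JNK and p38 cascades. Its normalized counts were 840.03, 837 and 840.1 in the control libraries and 6828, 5958 and 6181 in the dexamethasone libraries. The control libraries were almost equal, with a coefficient of variation of 0.237%, the lowest among the 8 genes with a control mean of at least 100. The control reads were 915, 855 and 956, at which counting error alone exceeds this value, so it understates the spread. The mean rose 7.54-fold, from 838.9 ± 1.99 to 6322 ± 452 (SD, n = 3 each), and the log2 fold change was 2.91 (SE 0.0474, adjusted p = 3.4e-25 in limma). Its partner Map3k5 had 62.4, 60.7 and 79.97 normalized counts in control and 559.9, 501 and 486 with dexamethasone. Map3k5 rose by a log2 fold change of 2.92 (SE 0.121, adjusted p = 6.86e-17 in limma). The fold changes of both partners were thus close, with 95% intervals of 2.81 to 3.01 for Map3k6 and 2.67 to 3.17 for Map3k5. Their relative Map3k15 had 28.8 ± 11.1 and 29.5 ± 7.74 (SD, n = 3 each) normalized counts and did not pass the test (adjusted p = 0.834 in limma).

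Genes around Sgk1 did not move one way. Ndrg1, a protein phosphorylated by SGK1, fell from 3190.05 ± 47.0 to 1019.5 ± 49.8 (SD, n = 3 each), a log2 fold change of -1.65 (adjusted p = 2.94e-20 in limma). Nedd4l was higher, with a log2 fold change of 0.54 (adjusted p = 8.8e-10 in limma) that was under the cut-off of 1. Of the paralogues, Sgk2 rose at low counts, from 6.79 ± 1.18 to 17.1 ± 4.29 (SD, n = 3 each), and Sgk3 had 129 ± 21.6 and 141 ± 24.96 (SD, n = 3 each) and did not pass the test.

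Of the transcriptional regulators, Tsc22d3 and Zbtb16 were called and Bcl6 was not. Tsc22d3 encodes GILZ, a leucine zipper protein that binds and restrains NF-kappaB and AP-1. Its normalized counts were 5341, 5653 and 5600.4 in control and 17349, 17632 and 17186 with dexamethasone. The groups were far apart for the spread within them. The rise was 3.14-fold, from 5531 ± 167 to 17389 ± 226 (SD, n = 3 each), with a log2 fold change of 1.65 (SE 0.0352, 95% interval 1.58 to 1.73, adjusted p = 6.7e-23 in limma). The other members of the TSC22 family went apart. Tsc22d2 fell from 19250.2 ± 392 to 6323 ± 157 (SD, n = 3 each), a log2 fold change of -1.61 (adjusted p = 1.07e-22 in limma). Tsc22d1 and Tsc22d4 were higher by 0.63 and 0.48 on the log2 scale, under the cut-off of 1.

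Zbtb16 encodes PLZF, a zinc finger repressor of the BTB family that recruits corepressor complexes. It had 0 reads in each of the 3 control libraries and 39, 42 and 39 reads with dexamethasone, which were 37.2, 45.8 and 45.3 normalized counts. The gene was thus detected in every dexamethasone library and in no control library, at a low level. Against the limit of 3 reads per library that a count of 0 allows, it was at least 14.6-fold higher with dexamethasone, a lower bound of 3.87 on the log2 scale. The fitted log2 fold change was 5.45 (SE 0.502, adjusted p = 5.56e-10 in limma), and it depends on the 1 added before the logarithm. PLZF is also made by some lymphoid cells. Of 6 lymphoid markers, 4 were in the table, 2 of them had 3 reads or fewer in every library, and their summed level was 11.4 to 13.7 normalized counts in control and 2.86 to 6.98 with dexamethasone. The part of lymphoid cells in the difference of Zbtb16 was not tested. Sequence shared with other genes was small, at 0.134% of the 75-base positions of its transcripts.

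Bcl6, a related BTB zinc finger repressor best known from germinal centre B cells, had 1976, 2045 and 1912 normalized counts in control and 2337, 2148 and 2142 with dexamethasone. The groups did not overlap, but the gap between them was smaller than the range within either group. Its log2 fold change was 0.16 (SE 0.0465, 95% interval 0.06 to 0.26, adjusted p = 0.00382 in limma), far under the cut-off. The difference did not pass the test when library totals were made equal (log2 fold change 0.04, adjusted p = 0.314 in limma) or after quantile normalization (0.01, adjusted p = 0.75 in limma). A gene on the opposite strand overlaps 0.313% of its exon bases. Among the corepressors that these proteins recruit, Bcor did not pass the test and Ncor1 had a log2 fold change of -0.13. Bcl6b, the closest relative of Bcl6, was not tested for lack of reads.

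Errfi1, Arrdc2 and Mertk act on receptors at the cell surface or on their traffic. The product of Errfi1 is MIG6, a feedback inhibitor that binds the kinase domain of the EGF receptor. It had 1629, 1641 and 1559 normalized counts in control and 9885, 8963 and 9378 with dexamethasone, so that the groups were widely separated. Its rise was 5.85-fold, from 1609.5 ± 44.2 to 9409 ± 462 (SD, n = 3 each), with a log2 fold change of 2.55 (SE 0.0414, 95% interval 2.46 to 2.63, adjusted p = 3.18e-25 in limma). The receptors that it binds differed little, with a log2 fold change of 0.30 for Egfr (adjusted p = 0.000191 in limma) and 0.06 for Erbb2, which did not pass the test (adjusted p = 0.137 in limma). The sign for Erbb2 depended on the scaling, at -0.05 at the same total and -0.11 after quantile normalization (adjusted p = 0.00286 in limma). Erbb3 and Erbb4 had too few reads to be tested.

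Arrdc2 encodes an alpha-arrestin, an adaptor between membrane proteins and ubiquitin ligases. Its normalized counts were 487, 477 and 435 in control and 1455, 1288 and 1369.8 with dexamethasone. The lowest dexamethasone library was well above the highest control library. The rise was 2.94-fold, from 466 ± 27.3 to 1371 ± 83.1 (SD, n = 3 each), with a log2 fold change of 1.55 (SE 0.0641, 95% interval 1.42 to 1.69, adjusted p = 6.27e-17 in limma). Among its paralogues Arrdc3 and Arrdc4 were higher by 0.71 and 0.36 on the log2 scale, both under the cut-off. Arrdc1 did not pass the test (adjusted p = 0.0874 in limma). Txnip, the best known alpha-arrestin and a brake on glucose uptake, had similar levels in both groups and did not pass the test (adjusted p = 0.974 in limma), although its log2 fold change was -0.22 after quantile normalization (adjusted p = 9.32e-07 in limma).

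Mertk encodes a receptor tyrosine kinase of the TAM family (Tyro3, Axl and Mertk), through which cells engulf apoptotic cells. It had 2381, 2459 and 2364 normalized counts in control and 5194, 4538 and 4492 with dexamethasone. Every dexamethasone library was well above the control libraries, and dexamethasone replicate 1 was the highest. Its mean was 1.97-fold higher, 2401 ± 50.6 against 4741 ± 393 (SD, n = 3 each), and the log2 fold change of 0.98 (SE 0.0473, 95% interval 0.88 to 1.076, adjusted p = 1.73e-15 in limma) was just under the cut-off of 1. Without dexamethasone replicate 2 it was 1.01 and without dexamethasone replicate 3 it was 1.02, and the gene was then called, whereas it was 0.82 to 0.86 under the other scalings. Both other receptors of the family were higher too. Axl had 16207, 16816 and 16727 normalized counts in control and 62840, 56574 and 57804 with dexamethasone. Its log2 fold change was 1.83 (adjusted p = 1.14e-22 in limma). Tyro3 rose from 2069 ± 47.1 to 4219.98 ± 302 (SD, n = 3 each), a log2 fold change of 1.03 (adjusted p = 3.9e-16 in limma), which was 0.91 at the same total and 0.87 after quantile normalization and then not called. The genes of the ligands went the other way. Gas6 fell from 12068 ± 385 to 5689.8 ± 291 (SD, n = 3 each), a log2 fold change of -1.09 (adjusted p = 4.63e-18 in limma), and Pros1 was lower with a log2 fold change of -0.38 (adjusted p = 1.37e-09 in limma), under the cut-off.

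Mertk is also a gene of macrophages. Of 10 macrophage markers 6 were in the table, and their summed level was 1472 to 1489 normalized counts in control and 1480.3 to 1674 with dexamethasone. Of the 5 tested, 3 were called higher and 1 lower, beside 11.7% and 10.6% of all tested genes. By the adjusted p alone 3 were higher and 2 lower, beside 37.2% and 35.2%. Cd68, Cd163 and Cd14 rose, by 1.78, 1.33 and 1.21 on the log2 scale (Cd163 at low counts, 6.18 ± 0.816 and 17.1 ± 2.35, SD, n = 3 each), Lyz2 fell by 1.502, Csf1r had 46.0 ± 7.49 and 28.3 ± 0.360 (SD, n = 3 each), and Fcgr1 had 3 reads or fewer in every library. The part of macrophages in the difference of Mertk was not tested.

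**Figure D3:**
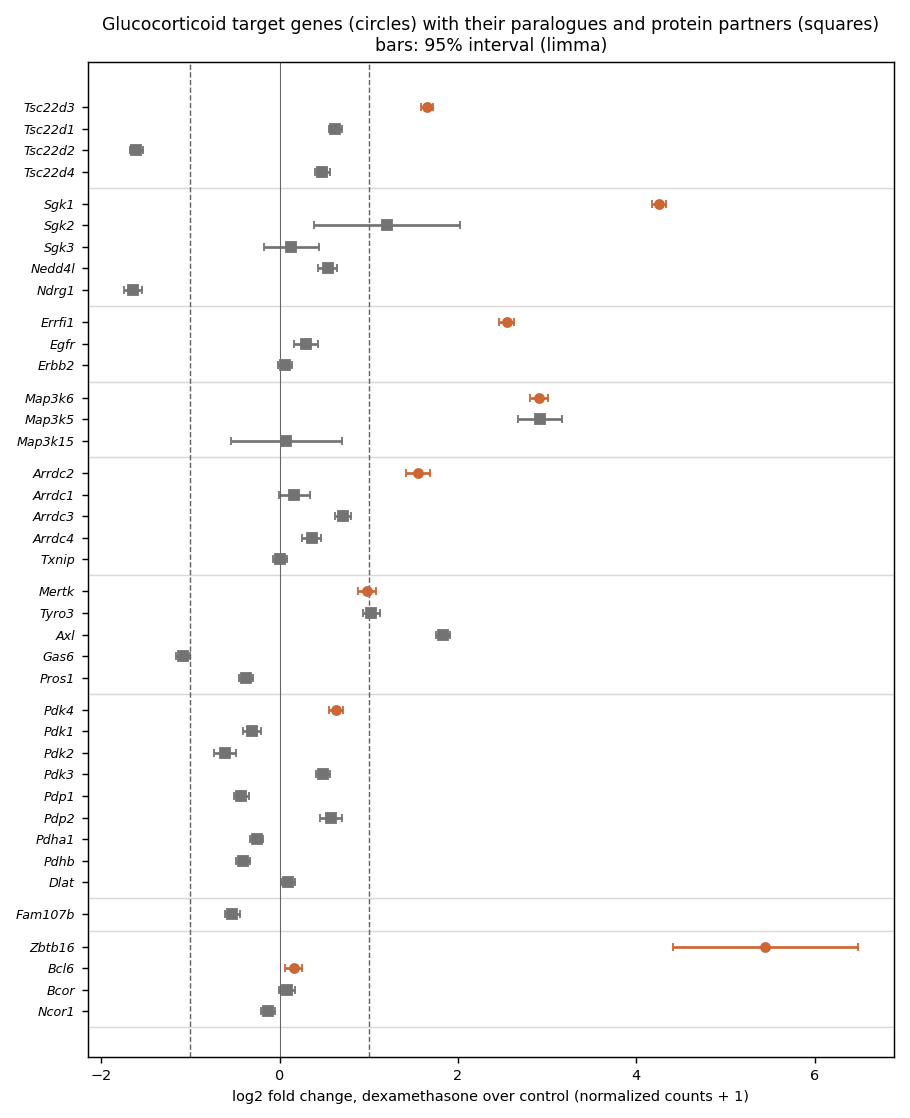
Log2 fold change, dexamethasone over control, with its 95% interval from limma, for the 9 tested target genes (circles) and the paralogues and partners reported here (squares). Axl at 1.83 and Map3k5 at 2.92 lie well above the upper dashed line, at 1, while Tsc22d2, Ndrg1 and Gas6 lie below -1.

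Pdk4 was higher by less than the cut-off. It encodes pyruvate dehydrogenase kinase 4, which phosphorylates and so turns off the pyruvate dehydrogenase complex, sparing glucose. It had 6773, 6993 and 6846 normalized counts in control, and 11347, 10109 and 10553 with dexamethasone. No dexamethasone library came near the control range. The mean was 1.55-fold higher, 6871 ± 112 against 10669.6 ± 627 (SD, n = 3 each), with a log2 fold change of 0.63 (SE 0.0395, 95% interval 0.55 to 0.71, adjusted p = 2.96e-13 in limma). Its log2 fold change was greater than that of 81.2% of all tested genes. Of 8 genes of kinases, phosphatases and subunits of the same complex, 0 were called in either direction, beside 22.3% of all tested genes. By the adjusted p alone 3 were higher and 5 lower, beside 37.2% and 35.2% of all tested genes. Pdk3 and the phosphatase gene Pdp2 were higher by 0.49 and 0.58 on the log2 scale, and Pdk1 and Pdk2 were lower, with log2 fold changes of -0.31 and -0.61. The subunit gene Dlat (0.10) became -0.02 at the same total and -0.11 after quantile normalization. Pdk4 is abundant in skeletal muscle, and the 5 of 6 muscle markers in the table summed to 63.3 to 79.3 normalized counts in control and 55.6 to 73.5 with dexamethasone. The 6 adipocyte markers summed to 28.4 to 36.0 in control and 1437 to 1545 with dexamethasone, nearly all of it Fabp4, while Cidec and Lep had 3 reads or fewer in every library. The part of these cell types in the difference of Pdk4 was not tested. Of its 75-base positions, 0.599% occur in other genes.

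Fam107a encodes an actin-associated protein, also called DRR1, that glucocorticoids raise in brain. It had 2, 2 and 5 reads in control and 3, 7 and 4 reads with dexamethasone, and the groups overlapped. No difference was detectable at this depth. Fitted without the filter, its log2 fold change was 0.69 with a 95% interval of -0.47 to 1.84 (adjusted p = 0.348 in limma over 29616 genes). Its paralogue Fam107b was lower with dexamethasone, 4939 ± 228 against 3420.3 ± 64.5 (SD, n = 3 each), with a log2 fold change of -0.53 (adjusted p = 1.42e-11 in limma).

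The 34 paralogues and partners of the 10 genes held 31 tested genes, of which 4 were called higher (Sgk2, Tyro3, Axl and Map3k5) and 3 lower (Tsc22d2, Ndrg1 and Gas6), beside 11.7% and 10.6% of all tested genes. Calls of higher genes were 3 without dexamethasone replicate 1, where Tyro3 was 0.97, and without dexamethasone replicate 2, where Sgk2 was 1.03 and missed the test (adjusted p = 0.0511 in limma). With 5 in place of the 1 added before the logarithm, Sgk2 was 0.90 and not called. By the adjusted p alone 14 were higher and 11 lower, beside 37.2% and 35.2% of all tested genes.

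Per kilobase of exon in the GENCODE M21 annotation, the order of the 10 genes changed with dexamethasone. In control the highest level was that of Pdk4 at 1957 normalized counts per kilobase, followed by Tsc22d3 (1274), Sgk1 (733), Mertk (554), Errfi1 (449), Bcl6 (295), Map3k6 (182) and Arrdc2 (144). With dexamethasone it was that of Sgk1 at 13979.5 normalized counts per kilobase, followed by Tsc22d3 (4006), Pdk4 (3039), Errfi1 (2627), Map3k6 (1373), Mertk (1093), Arrdc2 (424) and Bcl6 (329.7). Fam107a and Zbtb16 were last, at 0.705 and 0 in control and at 1.30 and 8.10 with dexamethasone. In neither group did the libraries of neighbouring genes in this order overlap. In control, however, Fam107a (2, 2 and 5 reads) and Zbtb16 (0 reads) cannot be told apart, since a count of 0 allows up to 3 reads. Sgk1 moved from above 69.6% of the tested genes to above 96.2%, and Zbtb16 with dexamethasone was above 9.05%. In the order by fitted log2 fold change, Zbtb16, Sgk1, Map3k6, Errfi1, Tsc22d3, Arrdc2, Mertk, Pdk4 and Bcl6, the 95% intervals of Tsc22d3 and Arrdc2 overlapped, and those of the other neighbours did not. The place of Zbtb16 before Sgk1 depends on the 1 added before the logarithm and is not settled. With 5 added, Zbtb16 was 3.25 and Sgk1 4.25, and the lower bound of Zbtb16 was 3.87.

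**Figure D4:**
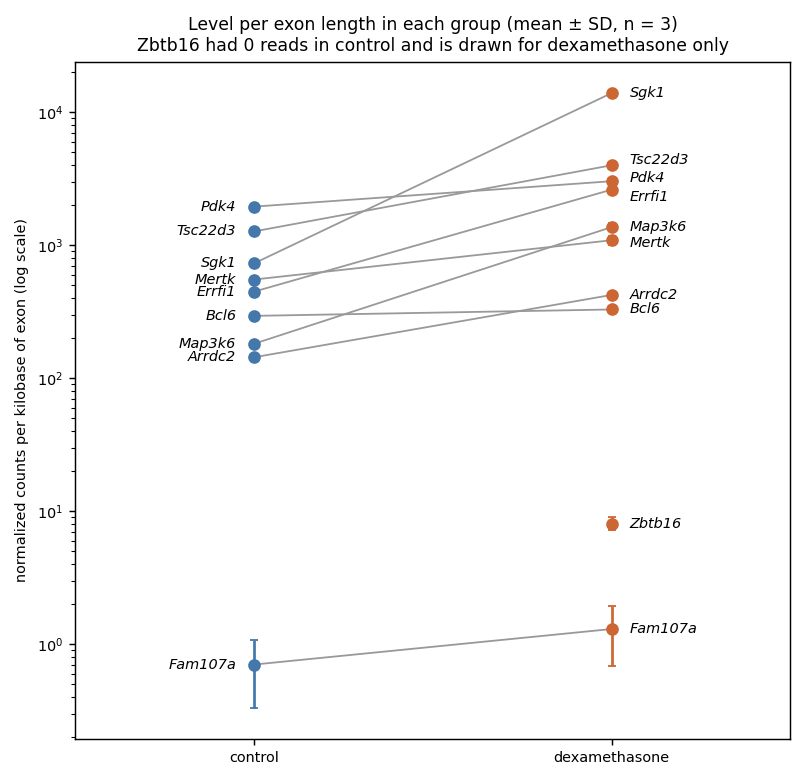
Level of each gene in normalized counts per kilobase of exon (log scale, mean ± SD, n = 3) in the control and dexamethasone libraries, joined by a line per gene. Sgk1 goes from 733, below Pdk4 and Tsc22d3, to 13979.5, above all others, and the line of Bcl6 is nearly flat, from 295 to 329.7.

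Among the 3 dexamethasone libraries, replicate 1 was the highest in 7 of the 9 tested genes, beside 47.8% of all tested genes. Within groups, the coefficient of variation of the 8 genes with a control mean of at least 100 was 0.237% to 5.98% in control and 0.861% to 8.28% with dexamethasone.

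Other genes known to rise with glucocorticoids were taken from a list of 32 genes, of which 29 were in the table and 28 were tested. Of these 10 were called higher and 0 lower, beside 11.7% and 10.6% of all tested genes, with a median log2 fold change of 0.62, and by the adjusted p alone 16 were higher and 6 lower, beside 37.2% and 35.2%. Fbxo32, an atrophy-related ubiquitin ligase gene at -0.97, was called lower at the same total (-1.08), after quantile normalization (-1.09), without control replicate 1 (-1.02) and without dexamethasone replicate 1 (-1.003). Rasd1, at low counts (11.4 ± 2.12 and 25.7 ± 6.43, SD, n = 3 each), was called at 1.097. It was not called at the same total (0.99), without dexamethasone replicate 2 (0.92) or with 5 added before the logarithm (0.90). Both are named for these changes after their values were seen. In control no library had more than 3 reads of Hif3a, a hypoxia-inducible factor subunit, which reached 566 ± 14.3 (SD, n = 3) normalized counts with dexamethasone, at least 193-fold higher. Fkbp5, the co-chaperone that lowers the receptor's affinity for hormone, had 1829, 1897 and 1837 normalized counts in control and 42453, 37715 and 38299 with dexamethasone, a log2 fold change of 4.41 (adjusted p = 1.3e-29 in limma). Lcn2 (lipocalin 2) rose by 4.85, the metallothionein genes Mt2 and Mt1 by 3.89 and 2.19, and Anxa1 (annexin A1) by 1.24 on the log2 scale. Cdkn1a, which encodes the cell cycle inhibitor p21, was lower, with a log2 fold change of -0.73. Mt1 held the shorter palindrome in a promoter window, as did Trim63, which had 22.0 ± 4.10 and 24.96 ± 6.00 (SD, n = 3 each) normalized counts and did not pass the test.

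Genes that glucocorticoids are known to lower, in inflammation and in bone, made up a list of 16, of which 11 were tested. Of these 7 were called lower and 2 higher, beside 10.6% and 11.7% of all tested genes, with a median log2 fold change of -1.077. Lower calls were 6 after quantile normalization, where Il11 was -0.97, and without control replicate 2 or dexamethasone replicate 2, where Vcam1 was -0.96 and -0.996. They were also 6 with 5 added before the logarithm, where Il11 was -0.88. Il11 had low counts, 24.9 ± 2.53 and 11.3 ± 1.02 (SD, n = 3 each). Under other filters the lower calls were 6 with at least 10 normalized counts in every library, 5 at a mean of at least 100 and 8 without a filter. The decreases were largest for Igf1, a growth factor of bone, at -4.05, and for Bglap2, a copy of the Osteocalcin gene whose count is uncertain for the same reason as that of Bglap, at -3.33. Col1a1 (type I collagen) had a log2 fold change of -1.88, Tnfrsf11b (osteoprotegerin, the decoy receptor of RANKL) -1.79 and Vcam1 -1.001. Ptgs2 (cyclooxygenase 2) was lower by less than the cut-off, at -0.21. The chemokine gene Ccl2 and the collagenase gene Mmp13 rose instead, by 2.19 and 1.45 on the log2 scale.

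The receptor and its helpers made up a list of 10 tested genes, of which 1 was called higher and 1 lower, beside 11.7% and 10.6% of all tested genes. By the adjusted p alone 5 were higher and 3 lower, beside 37.2% and 35.2% of all tested genes. Nr3c1, the glucocorticoid receptor itself, had 19449, 20679 and 20284 normalized counts in control and 10746, 10720.4 and 10355 with dexamethasone. The groups were well separated. Its log2 fold change was -0.92 (SE 0.0355, adjusted p = 1.46e-17 in limma), under the cut-off, and it was called lower at the same total (-1.04) and after quantile normalization (-1.12). It is named here because it is the receptor, outside the rule for named genes. The gene called lower was Nr3c2, the mineralocorticoid receptor, from 306 ± 18.5 to 139.8 ± 8.31 (SD, n = 3 each), a log2 fold change of -1.13 (adjusted p = 7.46e-10 in limma). The gene called higher was Hsd11b1, which encodes the enzyme that regenerates active glucocorticoid, at low counts (5.48 ± 1.56 and 46.9 ± 10.53, SD, n = 3 each) and named after its value was seen. The chaperone genes Hsp90aa1, Ptges3 and Hsp90ab1 were higher by 0.90, 0.77 and 0.33 on the log2 scale, each under the cut-off.

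**Figure D5:**
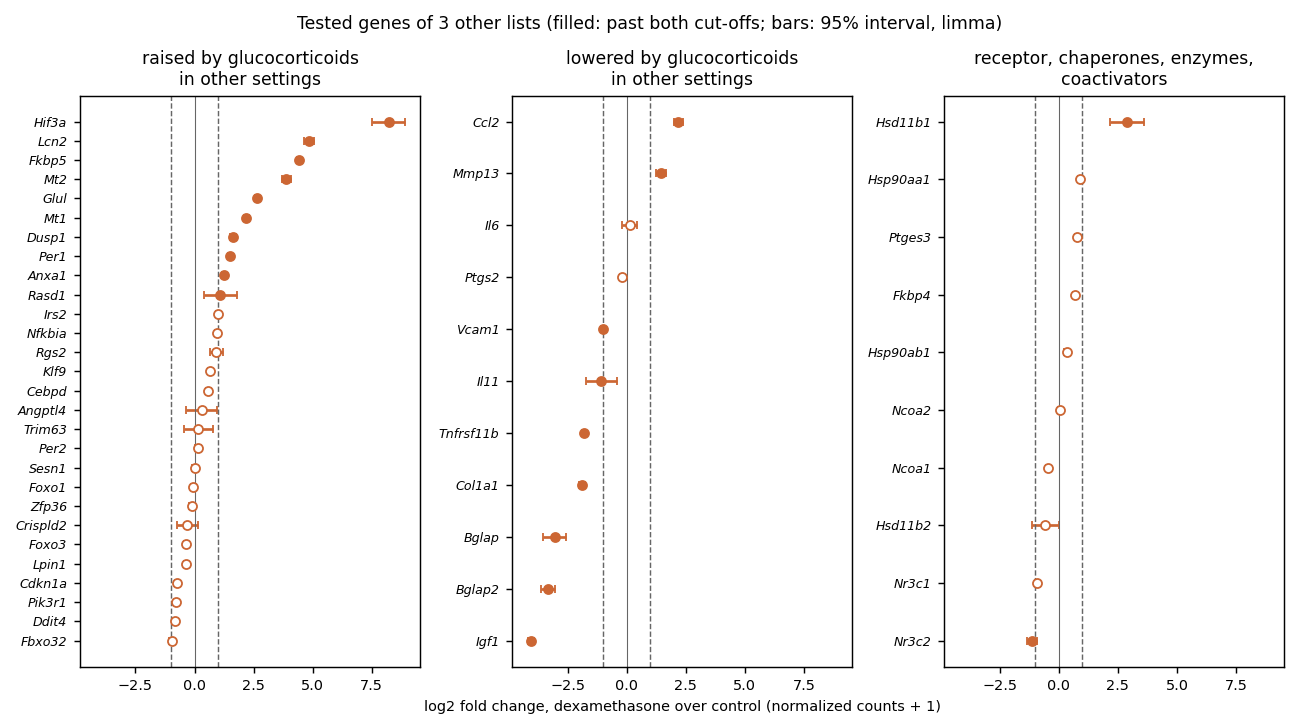
Log2 fold change, dexamethasone over control, of the tested genes of the 3 other lists, 1 panel each, with 95% intervals from limma, dashed lines at -1 and 1 and filled points for called genes. The medians are 0.62 for the raised genes, -1.077 for the lowered genes and 0.19 for the receptor and its helpers.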

How the data were processed

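RNA of the 6 libraries was prepared with a stranded mRNA kit and sequenced by the authors. Per the submitters' processing notes, reads were handled with bcl2fastq, STAR 2.7.10a and DESeq2 1.36.0 on GRCm39. Each deposited value is a signal, the reads of a gene divided by a size factor of its library. Which annotation was used, and whether counting was by strand, is not given in the sources used here. Every value (100%, tolerance 0.001 read) was a whole multiple of 1 read, so reads were recovered. All columns were used (0 left out).

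Gene symbols, exon lengths and overlaps came from GENCODE M21, a release of another build, and 28087 of 29616 identifiers had a symbol. Values were compared as log2(normalized count + 1) with limma 3.58.1 (mean-variance trend, R 4.3.3) where the mean was 10 or more. Fold changes on this scale understate those of low genes. Because 3 against 3 libraries allow an exact two-sided permutation p of 0.1 at the least, single genes were tested only within this fit. The alternatives were pseudocounts, filters, scalings, edgeR 4.0.16 and DESeq2 1.42.0 on recovered reads, a replicate block and each library left out in turn. The methods were tested on simulated data.

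The 10 genes, the lists and the tests were chosen with earlier results of these data known. From the other lists, the text names the 4 largest rises and the 4 largest falls among called genes of mean 100 or more, and the 3 with the highest mean. Any tested paralogue or partner could be named, and of the marker lists up to 3 genes with the highest mean and those at or near 0. Others were named after their values were seen. The counts of partners include 1 tested gene whose values are not reported here.

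Replicate libraries differed by more than sampling noise (chi-square per degree of freedom 3.27 to 26.1).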

Additional observations from a re-analysis of the deposited data

How the results depend on the processing

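Over 18 settings, 155 of the 160 alternative values of single genes kept their direction and their side of the threshold, 5 gained a call, 0 lost one and 0 changed sign. The gains were Pdk4 (0.63), Mertk (0.98) and Bcl6 (0.16) at an adjusted p under 0.05 alone, and Mertk without dexamethasone replicate 2 (1.01) or 3 (1.02), with a range of 0.91 to 1.02 over the libraries left out. The filters, a fit without the mean-variance trend, the replicate block and the adjusted p alone leave a gene's log2 fold change unchanged. In these settings its direction could not change. Bcl6 counts as kept because it stayed under the cut-off of 1. Its adjusted p in limma was 0.314 at the same total and 0.75 after quantile normalization. With 1 library left out, 6 to 7 of the 10 genes were called. Their median (1.65) was 1.54 at the same total and 1.48 after quantile normalization, and ran from 1.63 to 1.67 over the libraries left out. The median of all genes was -0.11 at the same total, and values there are relative to that shift. Among all genes, 3894 were called (52.3% higher), 3938 at the same total (45.1% higher), 2170 at a mean of at least 100 (62.2% higher), 12645 at an adjusted p alone, and from 3878 to 3910 over the libraries left out. At an adjusted p alone, more genes passed by construction, among them 72.5% of all tested genes. The calls were then 22 of 28 tested for the other raised genes (10 otherwise), 8 of 10 for the receptor list (2) and 25 of 31 for the paralogues and partners (7). The receptor list had 1 call with at least 10 normalized counts in every library and 1 at a mean of at least 100, where Hsd11b1 had too few counts. Zbtb16 gave no value under these filters, and its fitted log2 fold change ran from 3.25 to 8.42 over the others, since it had 0 reads in control. With 1 mismatch allowed, the full palindrome was found in windows of 1 of the 10 genes, Sgk1, as without.

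Libraries of the same number did not deviate together (r of -0.0999, -0.105 and -0.0199), so no pairing was assumed. A fit with the replicate block called 3897 genes, 6 of the 10 genes among them, and changed no call among the 10. Depth limits Fam107a and, in control, Zbtb16.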
